A study of Mus musculus with 28 samples.

Results

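The genes of the proteasome were followed in the amygdala of mice that drank water, drank alcohol once or drank it repeatedly. They were taken by symbol: every annotated gene whose name starts with *Psma*, *Psmb*, *Psmc*, *Psmd*, *Psme*, *Psmf* or *Psmg* and a number, without pseudogenes and antisense genes. Of 50 such genes, 48 had a mean count of at least 10 over all mice, and these 48 are described among 16266 genes tested. *Psma8*, a testis form of an alpha subunit with a mean count of 3.68, and *Psme2b*, named as a copy of *Psme2* with a mean count of 2.21, fell below that minimum. The members nearest above it were *Psmb9* at 10.04 and *Psmb11* at 11.4. The rule also takes in *Psmc3ip*, a protein of meiotic recombination that binds *Psmc3* and is not part of the particle, so 47 of the 48 are subunits, regulators or assembly chaperones.

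The proteasome is the barrel-shaped protease that breaks down proteins tagged with ubiquitin. Its core, the 20S particle, stacks rings of alpha subunits, which form the gate, around rings of beta subunits, which carry the proteolytic sites. The 19S cap recognizes ubiquitin and uses ATPases to unfold the substrate, the 11S and PA200 activators open the gate without ubiquitin, and under interferon the catalytic beta subunits are replaced by the inducible ones of the immunoproteasome. In neurons the particle is known for setting the turnover of synaptic proteins.

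RNA was sequenced from the amygdala of 28 adult female C57BL6/J mice, each a separate animal. The Water Drinking group (n = 10) received no alcohol, the Acute Drinking group (n = 9) had a single access to 20% alcohol, and the Chronic Drinking group (n = 9) had access to 20% alcohol on alternate days over a month. The animals were processed in a first batch of 11 (Water 4, Acute 4, Chronic 3) and a second of 17 (Water 6, Acute 5, Chronic 6). Total counts per mouse ranged from 20004380 to 22569562, and in the second batch 5 of 6 Chronic mice had more than any Water mouse there. Levels are CPM, the count scaled to library size, with the batch difference removed except where batches are compared, and a level per kb divides this by the length of the gene's principal transcript.

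In Water mice, the subunits of the core and cap stood among the more abundant transcripts of the tissue, while the inducible or tissue-specific beta subunits *Psmb8*, *Psmb9* and *Psmb11* had few reads. The median member had 34.7 CPM per kb, against 6.09 for the median of all genes tested. *Psmc5*, an ATPase of the 19S base, was highest at 75.0 ± 2.09 CPM per kb (SD, n = 10), followed by the ATPase *Psmc1* at 72.2 ± 4.21. The thymus-specific catalytic subunit *Psmb11* was lowest at 0.136 ± 0.025 CPM per kb.

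Per kb of principal transcript, the 7 beta subunits of the standard core ranged from 43.9 CPM in *Psmb2* to 58.0 in *Psmb6*, or 1.32-fold. Alpha subunits spread over 2.44-fold, from 20.4 in *Psma3* to 49.7 in *Psma4*, and the 19S ATPases over 2.71-fold, from 27.7 in *Psmc6* to 75.0 in *Psmc5*. The 11 other cap subunits ranged from 21.7 in *Psmd13* to 54.2 in *Psmd8*. Assembly factors were lower than the subunits they build with. The 3 chaperones of the 19S base lay between 7.22 (*Psmd10*) and 12.8 (*Psmd5*), and the 4 chaperones of the 20S ring between 5.20 (*Psmg4*) and 10.2 (*Psmg2*).

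Among the activators, *Psme3*, which forms the nuclear 11S cap, reached 48.8 CPM per kb. The partners of the cytoplasmic 11S cap followed, *Psme1* at 27.3 and *Psme2* at 14.7, and the PA200 gene *Psme4* had 6.46. *Psmf1*, the inhibitor PI31, had 8.69 CPM per kb. In the order of the 48 levels, most neighbours overlapped over the 10 Water mice. Ranges did not overlap only below *Psmc2* (43.0), below *Psma3* (20.4), below *Psmg4* (5.20) and between *Psmb9* (0.410) and *Psmb11*. The order depends on the length used. The median member was 27.8 CPM per kb with the longest transcript and 17.7 with all exons merged. With these lengths, chosen for this after the values were seen, the beta subunits ranged over 2.29-fold and 3.19-fold, the alpha subunits over 2.44-fold and 3.01-fold and the ATPases over 3.26-fold and 4.64-fold, so the narrow range of the beta subunits holds for the principal transcripts alone.

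**Figure D1:**
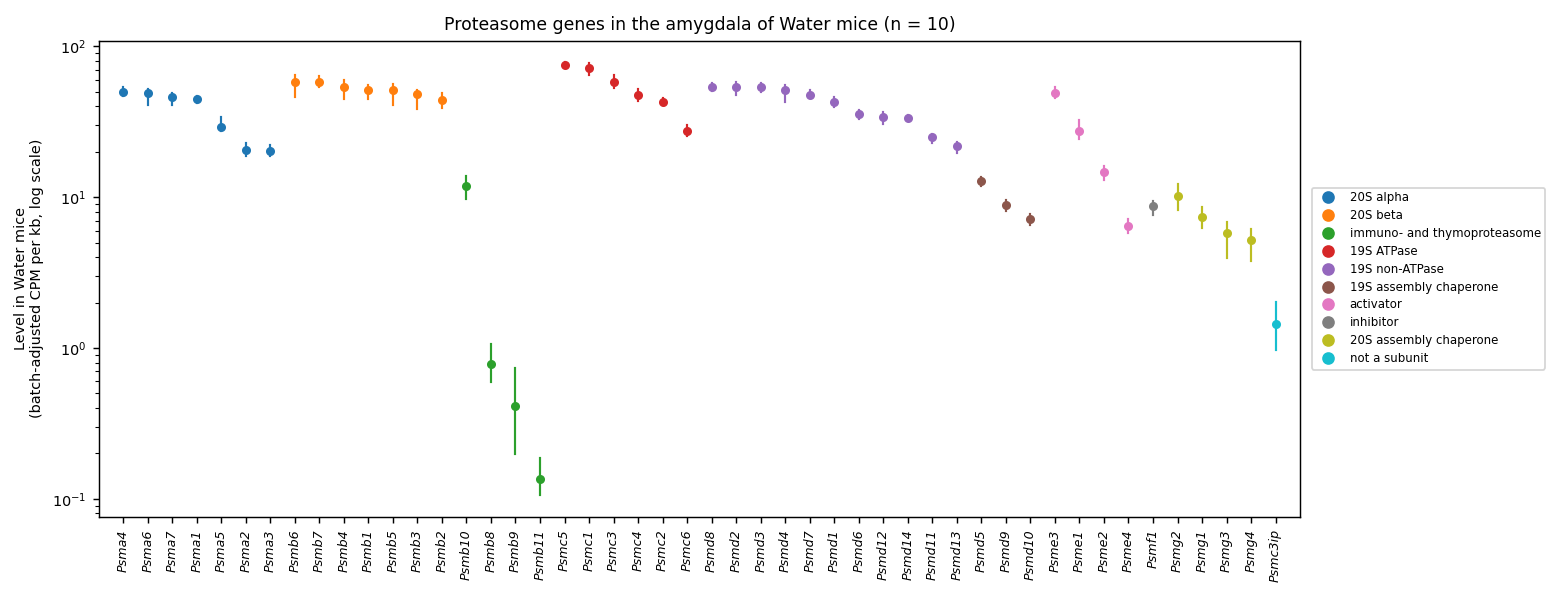
Level of each of the 48 genes in the 10 Water mice, in batch-adjusted CPM per kb of principal transcript on a log axis, coloured by place in the particle. Points are means and bars run from the lowest to the highest mouse. The standard beta subunits lie between 43.9 and 58.0, and the means of *Psmb8*, *Psmb9* and *Psmb11* lie under 1.

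Each catalytic beta subunit has an inducible counterpart, and the 3 pairs differed widely. Shares of a pair, and levels by batch, are from CPM without removal of the batch difference. *Psmb10*, which replaces the trypsin-like subunit *Psmb7*, made up 13.3% to 16.6% of the pair among the 11 first-batch mice (median 15.9%) and 15.5% to 19.9% among the 17 second-batch mice (median 18.2%), in levels per kb. *Psmb8*, which replaces the chymotrypsin-like *Psmb5*, made up medians of 0.816% and 1.59%. *Psmb9*, which replaces the caspase-like *Psmb6*, made up medians of 0.246% and 0.853%. Thus *Psmb10* made up at least 13.3% of its pair in every mouse, and the other inducible subunits at most 2.34% in any mouse. The annotated transcripts of *Psmb7* differ in length, and the *Psmb10* medians were 31.7% and 35.4% with the longest transcripts and 30.01% and 33.6% with merged exons. With either length the medians of *Psmb8* and *Psmb9* were lower than with the principal transcript.

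The counts behind *Psmb8* and *Psmb9* were small, with 12 to 43 reads per mouse for *Psmb8* and 1 to 22 for *Psmb9*. Mean *Psmb8* was 0.690 CPM among first-batch mice and 1.48 among second-batch mice, a 2.14-fold difference (adjusted p = 7.70e-08 in edgeR's quasi-likelihood test, Benjamini-Hochberg over all genes). *Psmb9* had 0.198 and 0.695 CPM and *Psmb11* 0.788 and 0.382. These are given without a test, since each reached the minimum mean count of 10 through 1 batch, *Psmb9* with means of 4.36 and 13.7 reads and *Psmb11* with 17.5 and 7.53. Of the 46 other members, which had a mean count of at least 10 in each batch, 12 were called higher and 9 lower in the second batch, where 21.9% and 23.8% of 15876 such genes were. Outside these 3 genes the member differences ran from -0.26 in *Psma5* to 0.31 in *Psma3*. *Psmb9* (GRCm38, chr17:34181987-34187764) overlaps *Tap1* on the opposite strand, and *Psmb8* (chr17:34197721-34201454) overlaps *Gm20496*. Whether the counting used strand is not given in the sources used here, so reads of such pairs may not be told apart. In all, 19 members overlap a gene on the opposite strand.

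The first question of the design was whether a single access to alcohol altered these transcripts. Most proteasome genes were a few percent higher in Acute than in Water mice, and none was called after adjustment. The log2 fold change was above 0 for 44 of 48 members, where 50.6% of all genes were above 0, and its median was 0.049, against 0.0011 over all genes. At an unadjusted p under 0.05, which 9.52% of all genes passed, 8 members (16.7%) were higher and 0 lower, beside 5.07% and 4.45% of all genes. The lowest adjusted p of a member was 0.403, and 0% of all genes were called by edgeR. DESeq2 also called 0 members, with 8 at an unadjusted p under 0.05 (9.39% of all genes). Limma-voom called 0, with 10 at that threshold (10.2% of all genes). The shares of all genes that these tools called are not reported here.

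The largest part of the 8 came from the 19S cap. *Psmd8*, a subunit of the cap's lid, had a lowest, median and highest level of 77.5, 84.6 and 87.5 CPM in Water mice and 83.5, 89.5 and 93.7 in Acute mice. Its groups overlapped, but 7 of 9 Acute mice were above every Water mouse. The log2 fold change was 0.098 ± 0.031 (SE), or 6.99% (p = 0.00389, adjusted p = 0.403, edgeR). *Psmc5* ranged from 94.8 to 103 CPM in Water mice (median 98.7) and from 95.9 to 111 in Acute mice (median 105), with 6 of 9 Acute mice above every Water mouse. Its log2 fold change was 0.085 ± 0.027 (p = 0.00393, adjusted p = 0.403, edgeR).

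*Psmd12*, a scaffold subunit of the lid, had 58.7, 64.4 and 69.5 CPM (lowest, median and highest) in Water and 63.6, 69.8 and 72.4 in Acute mice. *Psmd7*, partner of the lid's deubiquitinase *Psmd14*, had 71.8, 75.8 and 81.6 CPM in Water and 76.0, 79.6 and 84.8 in Acute mice. *Psmd13*, another lid subunit, had 39.4, 44.4 and 46.4 CPM in Water and 43.5, 46.1 and 50.9 in Acute mice. For these lid subunits, the ranges overlapped and the upper end was higher in Acute mice. The log2 fold changes were 0.093, 0.076 and 0.094, with adjusted p of 0.407, 0.445 and 0.462. The ATPase *Psmc4* had 62.7, 68.6 and 75.1 CPM in Water and 67.8, 72.7 and 77.0 in Acute mice, a log2 difference of 0.082 (adjusted p = 0.477).

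All 17 subunits of the 19S base and lid had log2 fold changes above 0, from 0.0012 in *Psmd11* to 0.098 in *Psmd8*, and 6 of these 17 were at an unadjusted p under 0.05. In the 20S core all 14 standard subunits were above 0 as well. Only *Psmb6* among them was at an unadjusted p under 0.05, with 37.1, 47.2 and 51.5 CPM in Water and 45.4, 50.02 and 54.0 in Acute mice. Its log2 fold change was 0.12 ± 0.047 (p = 0.0183, adjusted p = 0.468, edgeR), and 2 of 9 Acute mice were above every Water mouse. Of the other catalytic subunits, which did not reach this threshold, *Psmb7* had medians of 66.7 and 71.1 CPM (log2 0.060, p = 0.116, edgeR) and *Psmb5* of 47.4 and 48.9 (log2 0.036, p = 0.512, edgeR).

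**Figure D2:**
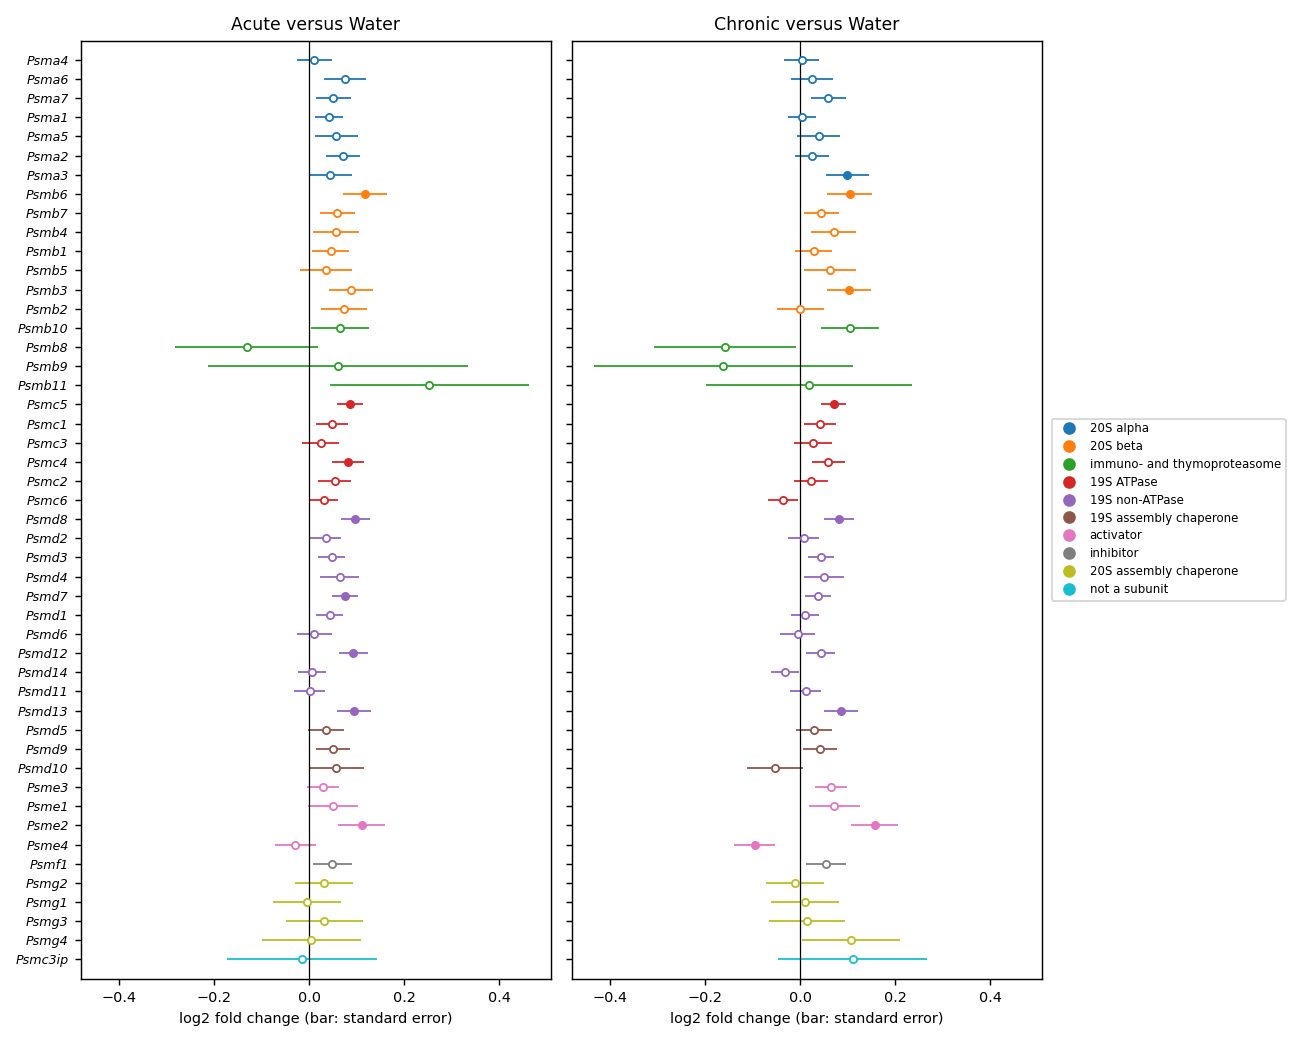
Log2 fold change of each of the 48 genes in Acute (left) and Chronic (right) against Water mice, with bars of 1 standard error. Filled points have an unadjusted p under 0.05 and open points do not. In the left panel 44 points and in the right panel 40 lie above 0, and both panels share the 10 Water mice.

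Of the 4 activators, 3 had a log2 fold change above 0. That of *Psme4* was below 0, but its sign was not resolved (p = 0.506, edgeR). *Psme2* had 12.5, 14.1 and 15.6 CPM in Water and 13.8, 15.8 and 16.1 in Acute mice (log2 0.11 ± 0.049, p = 0.0330, adjusted p = 0.501, edgeR). Its partner *Psme1* had medians of 29.1 and 31.3 CPM (log2 0.050, 95% interval -0.054 to 0.15). *Psme3* had medians of 126.6 and 133.7 CPM (log2 0.028), *Psme4* of 41.6 and 41.1 (log2 -0.029), and the inhibitor *Psmf1* of 33.3 and 34.4 (log2 0.049). The 3 chaperones of the base had log2 fold changes of 0.036 to 0.057. The chaperones of the ring, *Psmg1* to *Psmg4*, lay between -0.0043 and 0.032. Their Acute ranges were 6.38 to 8.94, 9.68 to 12.3, 4.57 to 5.95 and 2.22 to 3.32 CPM in turn, against 6.55 to 9.02, 8.68 to 12.9, 3.47 to 6.07 and 2.11 to 3.43 in Water mice, so all overlapped.

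Of the inducible and thymic subunits, *Psmb10* had 12.9, 16.0 and 18.0 CPM in Water and 14.2, 16.7 and 18.5 in Acute mice (log2 0.064 ± 0.061, 95% interval -0.055 to 0.18). The others had wide intervals. *Psmb8* had 0.968, 1.17 and 1.73 CPM in Water and 0.918, 1.08 and 1.70 in Acute mice (log2 -0.13, 95% interval -0.43 to 0.16). For *Psmb9* the interval ran from -0.47 to 0.60 and for *Psmb11* from -0.16 to 0.66. Among the 43 members with a mean count of 100 or more, *Psmb10* included, every 95% interval lay within 0.25 on either side of 0 on the log2 scale, and the largest difference was 8.46% (*Psmb6*).

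Repeated drinking was compared with the same Water mice, so this comparison is not independent of the first. Again most members were a few percent higher over both batches, though not in the first batch alone, as given below. In Chronic mice 40 of 48 members had a log2 fold change above 0, where 51% of all genes did, and the median was 0.038, against 0.0022 over all genes. At an unadjusted p under 0.05, which 10.5% of all genes passed, 7 members (14.6%) were higher and 1 lower, beside 4.81% and 5.65% of all genes. None was called by edgeR, beside 0.0184% (3 genes) of all genes, and the lowest adjusted p of a member was 0.241. DESeq2 also called 0 members, with 8 at an unadjusted p under 0.05 (10.2% of all genes). Limma-voom called 0, with 7 at that threshold (10.5% of all genes). The shares of all genes that these tools called are not reported here.

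*Psme2* had the lowest p of the members. Its levels were 13.4, 15.8 and 17.5 CPM (lowest, median and highest) in Chronic mice, against 12.5, 14.1 and 15.6 in Water, with 6 of 9 Chronic mice above every Water mouse. The log2 fold change was 0.16 ± 0.049, or 11.5% (p = 0.00346, adjusted p = 0.241, edgeR). The gene (chr14:55587441-55591113) lies near *Psme1* (chr14:55578123-55581529), which had 29.2, 31.5 and 36.7 CPM in Chronic mice and a log2 fold change of 0.072 (p = 0.184, edgeR). *Psme3* had 123.7, 138.2 and 144.4 CPM (log2 0.064, p = 0.0683, edgeR). *Psme4* was the member lower at this threshold, with 34.6, 39.3 and 42.2 CPM against 37.4, 41.6 and 46.9 in Water (log2 -0.095 ± 0.043, p = 0.0341, adjusted p = 0.433, edgeR). The fold changes of the 11S genes and of PA200 thus had opposite signs, *Psmf1* had a log2 fold change of 0.055, and the difference between these effects was not tested.

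Beside *Psme2*, the members *Psmd8*, *Psmc5*, *Psmd13* and *Psmb6* were higher at an unadjusted p under 0.05 in both comparisons with Water, as were 1.75% of all genes. The comparisons share the 10 Water mice. In Chronic mice *Psmd8* had 79.7, 88.9 and 95.9 CPM (log2 0.082, adjusted p = 0.341), and *Psmc5* 97.7, 102.5 and 111 CPM (log2 0.070, adjusted p = 0.348). *Psmd13* had 43.7, 45.1 and 49.5 CPM (log2 0.086, adjusted p = 0.378), and *Psmb6* 44.7, 49.3 and 54.0 CPM (log2 0.10, adjusted p = 0.434). All overlapped with the Water mice. The core subunits *Psmb3*, with 36.7, 40.1 and 43.2 CPM against 29.7, 38.5 and 39.4 in Water (log2 0.10), and *Psma3*, with 56.2, 59.4 and 75.6 CPM against 53.8, 58.3 and 62.9 (log2 0.099), completed the 7. Without Chronic mouse 1 the *Psma3* value was log2 0.060 (p = 0.128, edgeR).

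**Figure D3:**
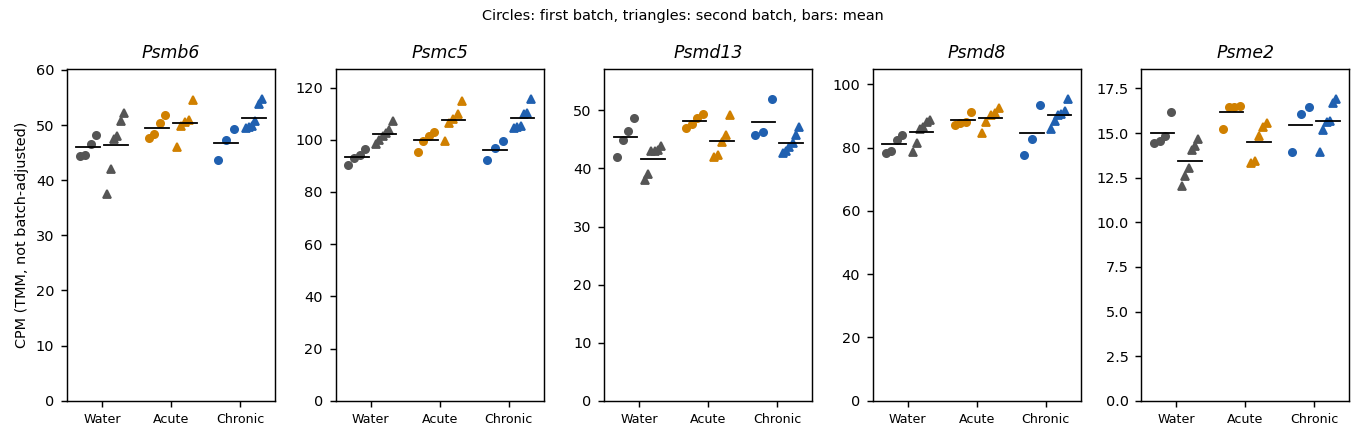
CPM of the 5 members with an unadjusted p under 0.05 in both comparisons with Water, 1 point per mouse, without removal of the batch difference. Circles are the first and triangles the second batch, and bars are batch means. Within a batch the Water points overlap with those of both alcohol groups, except for *Psmd8* in the first batch. There the Acute mice had 87.1 to 91.3 CPM and the Water mice 78.4 to 84.1. By batch means, *Psmc5* is higher and *Psmd13* lower in the second batch in every group.

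By place in the particle, all 14 standard core subunits and 14 of the 17 base and lid subunits had log2 fold changes above 0 in Chronic mice. Those below 0 were *Psmc6* (-0.035), *Psmd14* (-0.031) and *Psmd6* (-0.0049). Of the active sites, *Psmb7* had 62.3, 69.8 and 74.5 CPM (log2 0.045) and *Psmb5* 43.6, 48.4 and 53.0 (log2 0.062). The inducible subunits split, with *Psmb10* at 15.6, 16.6 and 18.4 CPM (log2 0.11, p = 0.0944, edgeR), *Psmb8* at 0.794, 1.17 and 1.48 CPM (log2 -0.16, 95% interval -0.45 to 0.13) and *Psmb9* at 0.264, 0.429 and 0.791 CPM (log2 -0.16, 95% interval -0.70 to 0.37). The ring chaperones ran from -0.011 in *Psmg2* to 0.11 in *Psmg4*, and the base chaperones from -0.053 in *Psmd10* to 0.042 in *Psmd9*. Of the 43 members with a mean count of 100 or more, 42 had a 95% interval within 0.25 on either side of 0, and that of *Psme2* reached just past it.

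Chronic and Acute mice were also compared with each other. The log2 fold change was above 0 for 15 of 48 members, where 49.4% of all genes were, with a median of -0.015. No member was called (lowest adjusted p 0.998, edgeR), beside 0% of all genes. At an unadjusted p under 0.05, 1 member was lower and 0 higher, where 4.44% of all genes passed and 2.5% were lower. This was the ATPase *Psmc6*, with 57.4, 63.7 and 65.8 CPM in Acute and 56.8, 59.7 and 64.3 in Chronic mice (log2 -0.066 ± 0.032, p = 0.0495). DESeq2 and limma-voom gave 0 members at that threshold, which 4.26% and 5.13% of all genes passed. In the first batch alone 5 of 48 members were above 0 (49.6% of all genes), with a median of -0.058 and 4 members at an unadjusted p under 0.05 (4.58% of all genes). In the second alone 27 were above 0 (50.1% of all genes), with a median of 0.0094 and 1 member at that threshold (3.99% of all genes). The sign of the median thus differed between the batches.

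The members did not vary independently of each other from mouse to mouse. For the 43 subunits, regulators and chaperones with a mean count of 100 or more, the level of each gene was set against its Water mean, and the median of these log2 differences was taken in each mouse. The Water mice lay between -0.10 and 0.054 (median 0.019), the Acute mice between 0.0076 and 0.091 (median 0.068) and the Chronic mice between -0.056 and 0.12 (median 0.042). In single mice nearly all members lay on 1 side: 4 of 43 were above the Water mean in Water mouse 4 of the second batch, and 41 of 43 in Chronic mouse 1. The groups overlapped, although all 9 Acute mice had a median above 0, as did 6 of 10 Water and 7 of 9 Chronic mice. The count of 44 of 48 therefore does not rest on 48 separate observations. Around the means of group and batch, the 43 members had a median SD of 0.080 on the log2 scale. The median was 0.11 over the 11723 genes with a mean count of 100 or more. Single members ran from 0.054 to 0.18, and the 2 sets were not matched for count.

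**Figure D4:**
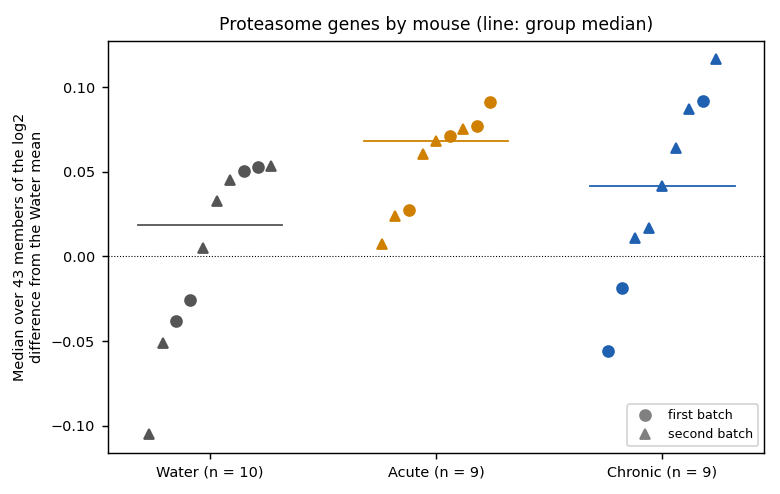
Median log2 difference from the Water mean over 43 proteasome genes, 1 point per mouse, with circles for the first and triangles for the second batch and a line at each group's median. The medians are 0.019 (Water), 0.068 (Acute) and 0.042 (Chronic). The lowest point is Water mouse 4 at -0.10, and the groups overlap.

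Both comparisons with Water were weaker without Water mouse 4 of the second batch. Without it, the Acute comparison had 6 members at an unadjusted p under 0.05 and a median of 0.036, and the Chronic comparison 4 and 0.025. Leaving out Water mouse 6 of the second batch also took the Chronic count from 8 to 4.

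The batches repeat the experiment in separate mice, with Water mice of their own. For Acute against Water, 42 of 48 members were above 0 in the first batch (median 0.059, 49.5% of all genes above 0) and 41 in the second (median 0.044, 50.4% of all genes). Here 36 members were higher in both batches, 1 was lower in both and 11 differed in sign. At an unadjusted p under 0.05, 5 members were higher in the first batch, beside 3.6% of all genes, and 1 in the second, beside 2.39%. For Chronic against Water the batches differed. In the first, with 3 Chronic mice, 24 of 48 members were above 0 (49.1% of all genes), with a median of -0.0019, and 1 was higher at an unadjusted p under 0.05, beside 1.86% of all genes. In the second, 40 were above 0 (50.5% of all genes), with a median of 0.063, and 8 were higher at that threshold, beside 6.5%, with 1 lower, beside 6.87%. Here 21 members were higher in each batch, 5 lower in each, and 22 differed in sign.

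**Figure D5:**
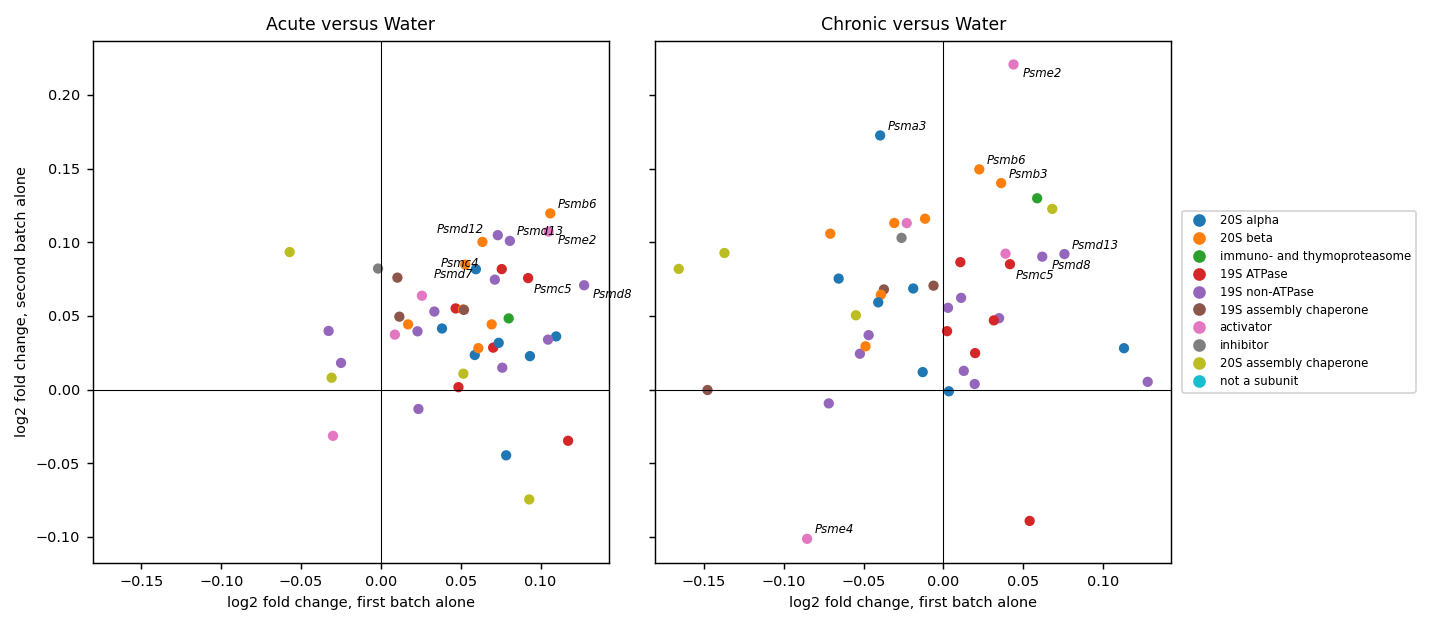
Log2 fold change in the first batch alone (x) against the second batch alone (y) for 44 proteasome genes, without *Psmc3ip* and the scarce *Psmb8*, *Psmb9* and *Psmb11*. Named genes have an unadjusted p under 0.05 over both batches. Acute points gather in the upper right of the panel, while Chronic points spread to both sides of 0 in the first batch.

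*Psme2* was higher by log2 0.044 in the first and 0.22 in the second batch of Chronic mice, and *Psma3* by -0.040 and 0.17. *Psmd8* (0.062 and 0.090) and *Psmd13* (0.076 and 0.092) were closer between batches. The difference between the batches itself was tested as an interaction, and no member passed adjustment in any comparison (lowest adjusted p 0.774, edgeR), beside 0%, 0.00615% and 0% of all genes for Acute against Water, Chronic against Water and Chronic against Acute. At an unadjusted p under 0.05 the members were *Psmc6* for Acute against Water, *Psmb7*, *Psmc6* and *Psma3* for Chronic against Water, and *Psmb7*, *Psma2* and *Psma3* for Chronic against Acute, beside 4.13%, 6.15% and 4.48% of all genes.

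Correction for each gene's GC content and length reduced the counts. With per-mouse offsets for these properties, 40 of 48 members were above 0 in Acute mice (52.8% of all genes), with a median of 0.035, and 5 were higher at an unadjusted p under 0.05 (4.21% of all genes). These were *Psmd8*, *Psmd12*, *Psmd13* and *Psmb6* of the 8, and *Psma2*. In Chronic mice 35 of 48 were above 0 (52% of all genes), with a median of 0.021, and *Psme2* and *Psma3* were the 2 members higher at that threshold (2.93% of all genes).

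Transcription of proteasome genes is known to be raised together by *Nfe2l1*, a factor that binds antioxidant response elements. *Nfe2l1* itself had 286.1, 297.9 and 313.2 CPM (lowest, median and highest) in Water mice, 290.1, 306.1 and 321.1 in Acute mice and 284.2, 301.7 and 316.0 in Chronic mice. Its log2 fold changes were 0.019 ± 0.025 and 0.0074 ± 0.025, and the ranges overlapped throughout. RefSeq promoter windows on GRCm38.p6, from 250 bases before to 50 after the start, were at hand for 41 of the 48 members. The core of the element, TGACNNNGC on either strand, stood in 6 of the 41 windows (14.6%), beside 14.0% of the windows of 27025 genes. The CCAAT box stood in 15 (36.6%), beside 41.1%. These shares are near the background. The windows with the core belong to *Psmb5*, *Psmb6*, *Psmc6*, *Psmd12*, *Psmd9* and *Psme4*. The stretches around it are shown for 4 of these, since *Psmb6* and *Psmd12* are among the 8 members above and *Psmc6* and *Psmd9* are not. The core is in capitals, and the motif reads on the strand opposite to the gene in *Psmc6* and *Psmd12*.
Psmb6, chr11:70525323-70525356, plus strand: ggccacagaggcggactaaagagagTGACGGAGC
Psmd12, chr11:107479278-107479314, plus strand: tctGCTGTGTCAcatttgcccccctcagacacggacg
Psmc6, chr14:45329574-45329630, plus strand: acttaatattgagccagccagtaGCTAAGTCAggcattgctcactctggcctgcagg
Psmd9, chr5:123228134-123228189, plus strand: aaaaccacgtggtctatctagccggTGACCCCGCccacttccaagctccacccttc
The core began 9 bases before the start in *Psmb6*, 31 in *Psmd9*, 227 in *Psmc6* and 247 in *Psmd12*. A match is a description of the letters only.

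The partners of the proteasome were split in sign. Of 35 listed genes, which bind the particle, regulate it, deliver substrates or supply ubiquitin, 32 were tested. *Txnl1*, *Stub1* and *Paaf1* were not analysed here. In Acute mice 17 of 32 had a log2 fold change above 0 (median 0.0031), and in Chronic mice 12 of 32 (median -0.0091). None was called. Genes at an unadjusted p under 0.05 included *Uchl1*, a neuronal ubiquitin hydrolase, which was higher in both comparisons, with log2 fold changes of 0.089 and 0.10. Lower were *Ecpas*, a proteasome-binding scaffold, in Acute mice (log2 -0.073) and the shuttle *Ubqln2* in Chronic mice (log2 -0.039). *Ubb*, which encodes polyubiquitin, had log2 fold changes of 0.053 in both, and *Pomp*, which assembles the core, of 0.046 and 0.037.

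Genes of antigen presentation and interferon signalling were set beside the inducible subunits. All 13 were tested and none was called. With an unadjusted p under 0.05, the class I gene *H2-D1* was higher in Acute mice (log2 0.15). At the same threshold in Chronic mice, the peptide transporter *Tap2* was higher (log2 0.15), and the interferon signal transducer *Stat2* was lower (log2 -0.12), while *Psme2* was higher and *Psmb8* not resolved. Between the batches *H2-K1* was higher in the second by log2 2.20 (adjusted p = 4.27e-14), as *Psmb8* was, whereas *Tap1* (log2 -0.15) and *B2m* (log2 -0.10) were not. Of the 13 genes, *H2-K1* was the only 1 called higher in the second batch, and 3 were called lower. Among genes with a mean count of at least 10 in each batch, 21.9% were called higher and 23.8% lower.

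Marker levels of other cells were read beside these results, since in bulk tissue fewer cells of a type and less RNA per cell cannot be told apart. Neuronal markers were abundant, with sums of 7924 to 8932 CPM (Water), 7941 to 9076 (Acute) and 8116 to 8914 (Chronic). Counts of markers here are those at an unadjusted p under 0.05, a threshold that 5.07% of all genes passed as higher and 4.45% as lower in Acute mice, and 4.81% and 5.65% in Chronic mice. Of 10 neuronal markers *Gad1* and *Eno2* were higher in Acute mice, and 0 passed in Chronic mice. Oligodendrocyte markers summed to 1465 to 2402 CPM (Water), 1730.4 to 2827 (Acute) and 1635 to 2359.8 (Chronic), with a median log2 fold change of 0.13 in Acute and 0.066 in Chronic mice over the 8 tested, and 0 of these 8 passed. Of 8 astrocyte markers 3 passed as higher in Acute mice, and 1 as higher and 1 as lower in Chronic mice. Of 9 microglial markers 1 passed as higher in Acute mice and 0 in Chronic mice, of 7 endothelial markers 1 and 2, and of 4 markers of oligodendrocyte precursors 0 and 0. Choroid plexus markers summed to 65.6 to 5983 CPM (Water), 39.1 to 5832 (Acute) and 31.5 to 6302 (Chronic). The summed ranges overlapped for all 7 lists. Their part in the proteasome differences was not tested.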

How the data were processed

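Amygdala RNA of 28 mice was analysed from 2 count tables, 1 per batch. The authors quantified reads with Salmon 0.14.1 on GRCm38, after FastQC 0.11.8 per the labels' processing notes, and deposited estimated counts per gene as whole numbers, without normalization or batch adjustment. The tables were matched by unversioned Ensembl identifier, with names, lengths and overlaps from GENCODE M21. Genes in both tables with a mean count of at least 10 were tested with edgeR 4.0.16 (TMM, quasi-likelihood, batch as covariate, all 28 mice in 1 fit, 2-sided, Benjamini-Hochberg over 16266 genes, called at an adjusted p under 0.05) in R 4.3.3. Adjusted p-values in the text are from this fit unless another tool is named. The batch coefficient was taken off log2 CPM (prior count 2) for levels by group. In data simulated from these counts, 77.5% (Acute) and 78.0% (Chronic) of 200 genes changed by log2 0.5 among 16266 were recovered, with 9 and 8 false calls. The fold changes of the members over both batches were smaller than this, and recovery of such changes was not measured. All pairs of mice within a group and batch (55) differed beyond counting noise.

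The members, gene lists and tests were chosen with earlier results of these data known. Members could each be named with their level. Values by group were given for active-site genes, activators, the inhibitor, ring chaperones, members with an unadjusted p under 0.05 and the extremes of each subcomplex, and from the other lists for *Nfe2l1*, *Pomp*, *Ubb* and genes with an unadjusted p under 0.05, of which some are not reported here. *Tap1*, *B2m*, *H2-K1* and marker genes were named after their values were seen. Alternatives were RLE and upper quartile normalization, no filter, a mean count of 100, DESeq2 1.42.0 with batch, ComBat-seq (sva 3.50.0) then DESeq2, limma-voom 3.58.1 with sample quality weights, each batch alone, a replicate block, GC content and length offsets, both together, a fit on the 2 groups of a comparison, and leaving out each mouse in turn.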

Additional observations from a re-analysis of the deposited data

Results flagged for a closer look

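For each member and group of 9 or 10 mice, the gap between the most extreme mouse and its nearest neighbour was set against the range of the group. Of 144 such groups 9 held a mouse that stood apart, in batch-adjusted CPM, and chance flags about 1 in 20 groups. Among core subunits these were *Psma5* in Water mouse 2 of the second batch (42.4, the others 34.1 to 37.8), *Psma6* in Water mouse 4 of the second batch (42.6, the others 48.3 to 54.7), *Psma6* in Acute mouse 5 (47.4, the others 52.2 to 57.7) and *Psmb3* in Water mouse 4 (29.7, the others 34.3 to 39.4). The other 5 were ring chaperones of low count. These were *Psmg2* in Chronic mouse 37 (9.16, the others 10.5 to 11.4), *Psmg3* in Water mouse 6 (3.47, the others 4.90 to 6.07), *Psmg3* in Chronic mouse 4 (6.35, the others 4.53 to 5.36), *Psmg4* in Acute mouse 4 (2.22, the others 2.72 to 3.32) and *Psmg4* in Chronic mouse 1 (4.27, the others 2.52 to 3.24). Water mouse 4 is also the mouse with the lowest level over the proteasome genes as a whole.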

How the results depend on the processing

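In the main fit 0%, 0.0184% and 0% of all genes were called for Acute against Water, Chronic against Water and Chronic against Acute. Such shares are not reported here for the other fits. Under each of 13 alternatives and 28 fits that left out 1 mouse, 0 members were called in any comparison. The Acute against Water median log2 fold change stayed above 0 in all of them. The number of members at an unadjusted p under 0.05, 8 in that comparison, was 5 in the first batch alone (7.21% of all genes), 1 in the second batch alone (5.004%), 5 with GC content and length offsets (6.99%) and 2 with the offsets and the replicate block (6.46%), where 9.52% of all genes passed without these changes. The Chronic against Water number, also 8, was 1 in the first batch alone (3.52% of all genes), 2 with the offsets (6.10%) and 2 with the offsets and the block (5.97%), against 10.5%, and the median was -0.0019 in the first batch alone, where *Psma3* was at -0.040. The Chronic against Acute number, 1, was 4 in the first batch alone (4.58%) and 0 (with 3.90% to 5.13% of all genes) with RLE, upper quartile, no filter, a mean count of 100, DESeq2 with batch, limma-voom, the offsets, the offsets with the block, and a fit on the groups compared alone, and the median was 0.0094 in the second batch alone. The cause of these differences was not tested. A single batch also held fewer mice, whose part in them was not tested either. The replicate block alone gave 7, 8 and 1 members, with medians of 0.045, 0.038 and -0.011. Same-numbered mice of different groups did not deviate together (correlations of -0.35 to 0.34 over 16 pairs, 4 over 0.1), so the numbers were not taken as pairs.

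Leaving out 1 mouse gave 6 to 12 members at an unadjusted p under 0.05 for Acute against Water (median 0.036 to 0.060), 4 to 11 for Chronic against Water (median 0.025 to 0.049) and 0 to 1 for Chronic against Acute (median -0.024 to 0.0021). The Chronic against Water number was 4 without Water mouse 4 or 6 and 5 without Chronic mouse 39, 1, 3 or 4, and the Chronic against Acute median was above 0 without Chronic mouse 37. The median level of 34.7 CPM per kb became 17.7 with merged exons and 27.8 with the longest transcript. Counts limit *Psmb8*, *Psmb9* and *Psmb11*.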
